A study of Homo sapiens with 18 samples.

Results

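The 10 human genes described here were followed in MiaPaCa-2 pancreatic cancer cells that were passed repeatedly through a nerve: KCNN4, CDCP1, PTPRU, NIPAL4, PIK3AP1, AHNAK2, DCDC2, CCDC73, MXRA7 and ITGBL1. They are 10 of the 57445 genes in the count table, and each symbol was found once. They were chosen by their measured levels, for a large difference between the leaders of passage 1 and those of passage 4, several of them crossing the level of the parental line on the way. The levels in those 3 groups, 9 libraries in all, are therefore a description with no test, and tests were made only among the 9 libraries that the choice did not use. The fit behind the tests, however, took in all 18 libraries.

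MiaPaCa-2 is an established human pancreatic cancer line, and all samples are labelled as wild type. The study injected the cells into the sciatic nerve, collected the cells found farthest along it (leaders), grew them in culture and injected them again, over 4 passages; cells that stayed behind at passage 1 are the laggers. The 18 RNA-seq libraries form 6 groups of 3. The parental cells were kept in vitro and not injected; the other 5 groups, laggers of passage 1 and the leaders of each passage from 1 to 4, are labelled in vivo. All come from 1 line. The labels do not say whether replicates came from separate injections or cultures, so p-values measure the spread between these libraries, which may be technical. The labels also do not say if collected cells were regrown first and lysed later.

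The 10 genes encode proteins of different kinds, and none shares a chromosome with another. KCNN4 encodes a potassium channel that opens when calcium-bound calmodulin acts on it, which lets potassium leave the cell and keeps the membrane potential favourable for calcium entry. CDCP1 is a transmembrane glycoprotein that Src family kinases phosphorylate and that then docks protein kinase C delta, PTPRU is a receptor tyrosine phosphatase of the MAM-domain family, and NIPAL4 belongs to a family of magnesium transporters. PIK3AP1 is a cytoplasmic adaptor that couples B-cell and Toll-like receptors to phosphoinositide 3-kinase, AHNAK2 is a giant scaffold protein, and DCDC2 binds microtubules through doublecortin domains. ITGBL1 is a secreted protein with repeats like those of integrin beta chains, MXRA7 is annotated as associated with matrix remodelling, and CCDC73 is a coiled-coil protein.

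RefSeq promoter windows on GRCh38.p14, from 250 bases before to 50 after a gene's start, were found for 9 of the 10 genes, as 12 windows. Those of 3 surface genes, low in passage 1 leaders and high in passage 4 leaders, are shown beside that of ITGBL1, which had nearly no counts at passage 4, to set the start regions of both courses side by side. KCNN4 lies at chr19:43780924-43781223 on the minus strand, CDCP1 at chr3:45146329-45146628 on the minus strand, PTPRU at chr1:29236272-29236571 on the plus strand and ITGBL1 at chr13:101452425-101452724 on the plus strand. Capitals mark GGGCGG, the core of a GC box, on either strand.
KCNN4: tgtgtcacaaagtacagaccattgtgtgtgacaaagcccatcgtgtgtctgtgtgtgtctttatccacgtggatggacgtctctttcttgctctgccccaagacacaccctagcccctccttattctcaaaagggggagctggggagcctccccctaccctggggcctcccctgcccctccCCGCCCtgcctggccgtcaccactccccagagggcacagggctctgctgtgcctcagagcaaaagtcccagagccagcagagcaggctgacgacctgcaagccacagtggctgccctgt
CDCP1: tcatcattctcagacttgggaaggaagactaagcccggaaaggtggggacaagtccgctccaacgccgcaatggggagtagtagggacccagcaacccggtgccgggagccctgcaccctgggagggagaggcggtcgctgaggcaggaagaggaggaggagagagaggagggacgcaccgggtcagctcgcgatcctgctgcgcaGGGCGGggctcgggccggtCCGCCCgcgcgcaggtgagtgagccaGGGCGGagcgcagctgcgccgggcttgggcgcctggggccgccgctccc
PTPRU: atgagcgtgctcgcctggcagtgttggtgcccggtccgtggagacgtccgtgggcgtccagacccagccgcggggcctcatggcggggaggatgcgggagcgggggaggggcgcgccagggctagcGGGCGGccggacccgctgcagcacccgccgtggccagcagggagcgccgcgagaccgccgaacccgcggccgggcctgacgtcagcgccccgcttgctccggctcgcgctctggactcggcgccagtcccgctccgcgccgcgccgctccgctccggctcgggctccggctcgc
ITGBL1: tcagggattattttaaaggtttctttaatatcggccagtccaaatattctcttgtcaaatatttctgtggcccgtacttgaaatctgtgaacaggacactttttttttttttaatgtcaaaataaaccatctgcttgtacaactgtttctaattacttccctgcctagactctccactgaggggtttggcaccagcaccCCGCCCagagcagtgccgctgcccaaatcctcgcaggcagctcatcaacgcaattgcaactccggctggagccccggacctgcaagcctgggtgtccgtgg
The windows differ in composition. PTPRU's has 78.7% G or C and 47 CpG pairs, CDCP1's 70.3% and 27, KCNN4's 60.7% and 6, and ITGBL1's 47.7% and 9, where the median over all RefSeq promoter windows is 58.7% and 14. The capitals occur once in KCNN4, PTPRU and ITGBL1 and 3 times in CDCP1, and at least 1 match stood in 44.9% of the 34794 windows searched. Neither TGANTCA, the AP-1 motif, nor TATAAA was found in any of the 12 windows; 7.73% and 11.6% of all windows held them. Matches to GGAATG, the TEAD motif, occurred 2 times in the second MXRA7 window, and TGTGGT, the RUNX motif, once in that of DCDC2, against 14.0% and 13.1% of all windows. All motifs were searched on both strands, and a match is a description of the letters only.

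Levels are given as CPM (edgeR's count of a gene relative to its library size after TMM scaling), which is not corrected for gene length unless said. Gene counts per library ran from 15113462 to 39373248. The line's own markers were present in every library, with means of 1826 to 2581 CPM for VIM and 2465 to 9580 CPM for KRT8, and CDKN2A, which this line lacks, had 0 counts except in 1 lagger library. Replicate 2 of the passage 3 leaders stood apart, with 24.8% of its reads unaligned and 21020 CPM of HBB, a red cell gene at most 1.25 CPM elsewhere. HBA1 and HBA2, the other red cell genes read, had only 1 and 2 counts over all passage 3 libraries. Replicate 3 of the passage 3 leaders was the highest of its group for KCNN4, PTPRU and PIK3AP1 and had 151 CPM of CD79A, against 3.47 and 4.48 CPM in the other passage 3 libraries. All 10 genes passed the filter on low counts, DCDC2 with 6 libraries at or above its level of 0.443 CPM, 3 of them from passage 4.

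**Figure D1:**
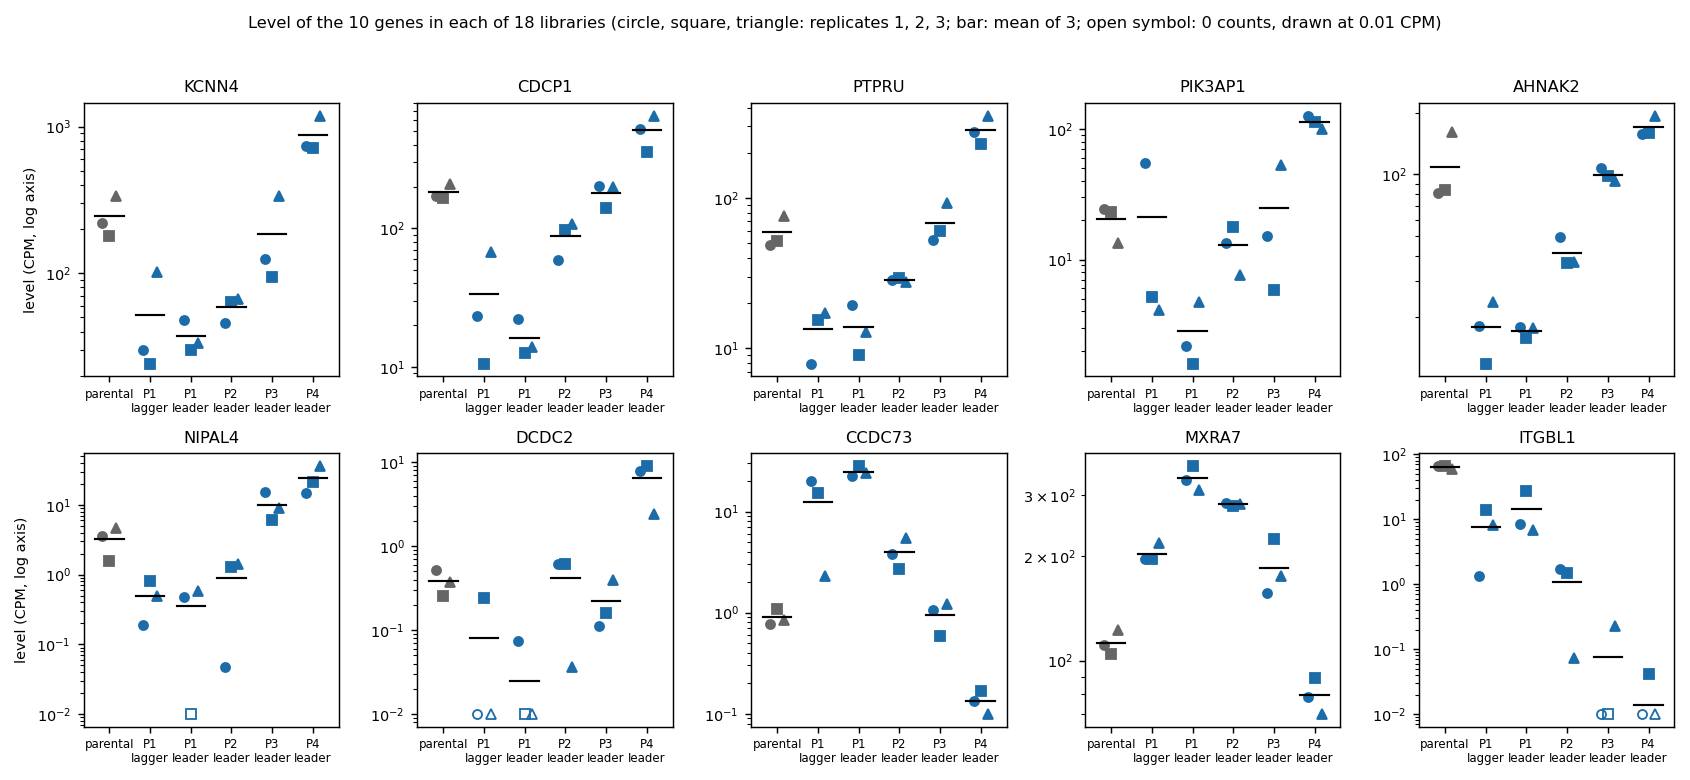
Level of each gene in CPM (vertical log axis) in the 18 libraries by group, with 1 symbol per library and a bar at the mean of 3; open symbols are libraries with 0 counts, drawn at 0.01 CPM. The bars of 7 genes are highest in passage 4 leaders and lowest in passage 1 leaders (for PTPRU in laggers), while CCDC73, MXRA7 and ITGBL1 are lowest in passage 4 leaders.

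A group of 7 genes had their lowest mean level in passage 1 leaders, or for PTPRU in laggers, and their highest in passage 4 leaders, namely KCNN4, CDCP1, PTPRU, NIPAL4, PIK3AP1, AHNAK2 and DCDC2. For all but DCDC2 of the 7, the mean was higher at each passage than at the one before. In the other 3 (CCDC73, MXRA7 and ITGBL1) the mean was lower at each passage from 1 to 4. For ITGBL1 the last step rests on 7 counts at passage 3 and 1 at passage 4, which overlap (log2 -2.52 ± 2.27 SE). Replicates of passage 1 and passage 4 leaders did not overlap for any of the 10, 7 higher and 3 lower at passage 4. That follows from the choice of the genes; 24.1% and 22.4% of all tested genes were apart in those directions.

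KCNN4, the calcium-activated potassium channel, had the highest level of the 10 in passage 4 leaders, at 259 CPM per kilobase of exon, against 78.2 for CDCP1, the next. In the parental line it stood at 219.5, 178 and 334 CPM. Passage 1 laggers gave 30.0, 24.1 and 102 CPM, and passage 1 leaders 48.0, 29.8 and 33.5 CPM. All 6 passage 1 libraries were thus below all parental ones. The leaders of passage 2 had 45.8, 63.6 and 66.6 CPM, those of passage 3 had 126, 94.2 and 335 CPM, and those of passage 4 had 742, 715 and 1188 CPM. Passage 3 leaders overlapped the parental range through replicate 3 alone, while each passage 4 library exceeded every other library. The passage 4 mean of 882 ± 266 CPM (SD, n = 3) was 23.8 times the passage 1 leader mean of 37.1 ± 9.64 CPM, a log2 difference of 4.57 ± 0.58 (SE), and 3.61 times the parental mean.

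CDCP1, the substrate of Src family kinases, followed a similar course. Parental libraries had 172, 165 and 209.8 CPM, laggers 23.3, 10.5 and 67.2 CPM, and passage 1 leaders 22.2, 12.7 and 13.8 CPM. Passage 2 leaders had 59.4, 97.8 and 108 CPM, passage 3 leaders 202, 140.4 and 198 CPM, and passage 4 leaders 518, 357 and 651 CPM. The passage 3 libraries overlapped the parental ones, and those of passage 4 lay above both. Between passage 1 and passage 4 leaders the means differed 31.3-fold (log2 4.97 ± 0.54 SE), and passage 4 stood 2.79-fold above the parental line.

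PTPRU, the receptor phosphatase, stepped up without overlap from passage 1 to 4. Its parental levels were 49.0, 51.8 and 76.5 CPM, those of laggers 7.89, 15.4 and 17.2 CPM, and those of passage 1 leaders 19.5, 9.06 and 12.9 CPM. Leaders had 28.6, 29.6 and 27.8 CPM at passage 2, 52.5, 60.6 and 93.1 CPM at passage 3, and 274, 229 and 354 CPM at passage 4. Each leader group from passage 2 on was above all libraries of the passage before it. The passage 4 mean was 20.6 times that of passage 1 (log2 4.36 ± 0.36 SE) and 4.83 times the parental mean.

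NIPAL4, the magnesium transporter, was the only 1 of the 7 to lie wholly above the parental line by passage 3. It had 3.63, 1.58 and 4.59 CPM in parental libraries, 0.189, 0.814 and 0.490 CPM in laggers and 0.479, 0 and 0.581 CPM in passage 1 leaders. Passage 2 leaders gave 0.0477, 1.27 and 1.40 CPM. At passage 3 the values were 15.2, 6.08 and 8.99 CPM, all above the parental libraries, and at passage 4 they were 15.0, 21.4 and 36.2 CPM, which overlap passage 3. The mean was 68.5 times higher at passage 4 than in passage 1 leaders (log2 6.03 ± 0.95 SE).

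PIK3AP1, the adaptor of phosphoinositide 3-kinase, varied widely among replicates of laggers and of passage 3 leaders. Parental libraries had 24.6, 23.2 and 13.3 CPM and passage 1 leaders 2.17, 1.58 and 4.69 CPM. Laggers gave 54.9, 5.17 and 4.06 CPM, so that 1 library carried most of the lagger mean. Passage 2 leaders had 13.3, 17.6 and 7.67 CPM and passage 3 leaders 15.2, 5.81 and 53.3 CPM, which overlap each other and the parental range. In passage 4 leaders the replicates agreed within a narrow range, at 128, 114 and 99.7 CPM, above every other library. The passage 4 mean was 40.4 times that of passage 1 leaders (log2 5.33 ± 0.99 SE) and 5.58 times the parental mean.

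CD79A, a B-cell receptor chain from the list of B- and T-cell markers, was also highest in passage 4 leaders. It stood at 259.9, 384.5 and 675 CPM in passage 4 leaders and at 151 CPM in passage 3 leader replicate 3, where PIK3AP1 was also highest among passage 3 libraries, and at most 7.97 CPM elsewhere. MS4A1, CD3D, CD3E and CD2, of the same list, had 0 counts in all passage 4 libraries. The part of these transcripts in the level of PIK3AP1 was not tested.

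AHNAK2, the scaffold, reached the range of the parental line but overlapped it at passage 4. It had 80.8, 83.7 and 161 CPM in the parental line, 18.1, 11.8 and 23.7 CPM in laggers and 17.96, 15.8 and 17.7 CPM in passage 1 leaders. The leaders then gave 49.1, 36.6 and 37.4 CPM at passage 2, 107, 97.4 and 92.8 CPM at passage 3, and 157, 159 and 193 CPM at passage 4. Passage 4 libraries overlapped the parental ones through parental replicate 3. The difference between passage 4 and passage 1 leaders was 9.90-fold (log2 3.31 ± 0.29 SE), the smallest of the 7.

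DCDC2, the microtubule-binding protein, was under 1 CPM in every library before passage 4. Parental libraries had 0.522, 0.255 and 0.370 CPM, laggers 0, 0.240 and 0 CPM, and passage 1 leaders 0.0736, 0 and 0 CPM. Passage 2 leaders had 0.621, 0.610 and 0.0369 CPM and passage 3 leaders 0.111, 0.160 and 0.397 CPM. Laggers and passage 1 leaders lay below all parental libraries, while passages 2 and 3 overlapped them. Passage 4 leaders had 7.77, 9.03 and 2.45 CPM. They held 465 counts against 2 in passage 1 leaders, a ratio of 217 (95% interval 59.7 to 1795, counting error only), and 15.7 times the parental share of 41 counts (11.4 to 22.2).

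**Figure D2:**
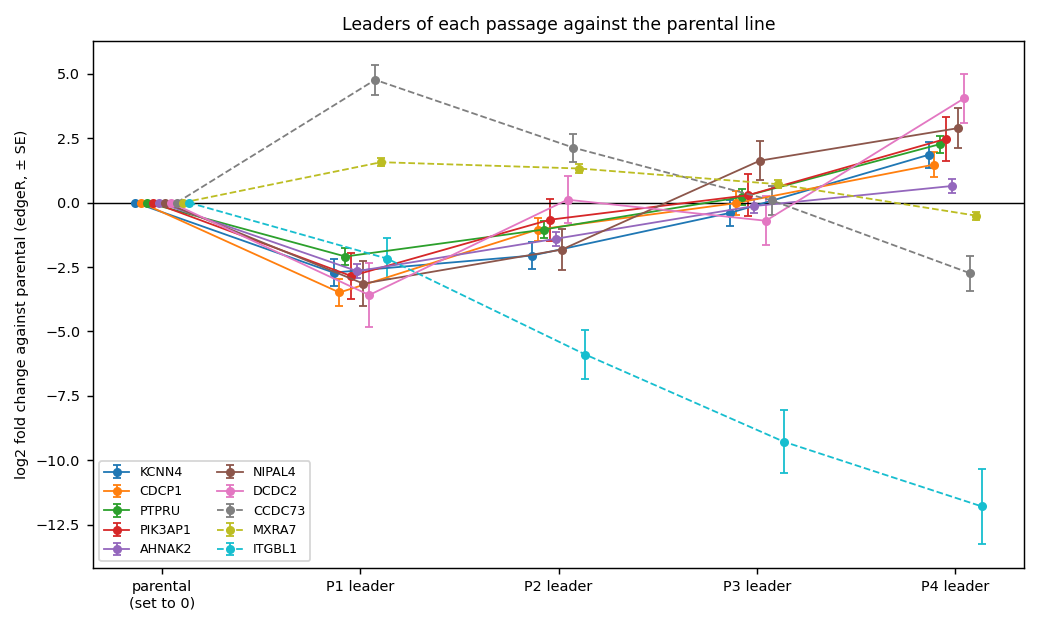
Log2 fold change of leaders at each passage against the parental line (vertical axis, edgeR, bars ± SE), with the parental line set to 0. The 7 genes drawn solid start below 0 at passage 1 and end above it, and CCDC73 and MXRA7 (dashed) start above and end below. The points of ITGBL1 lie farther from 0 at every passage, but those of passages 3 and 4 rest on 7 and 1 counts.

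CCDC73, the coiled-coil gene, ran the other way. It was scarce in the parental line, at 0.771, 1.10 and 0.851 CPM, and stood at 19.8, 15.2 and 2.31 CPM in laggers and 22.4, 28.3 and 23.8 CPM in passage 1 leaders. Passage 2 leaders had 3.82, 2.72 and 5.42 CPM, passage 3 leaders 1.05, 0.587 and 1.223 CPM, and passage 4 leaders 0.134, 0.167 and 0.0991 CPM. Passage 3 overlapped the parental line, and passage 4 was below it. Passage 1 leaders held 1753 counts against 10 in passage 4 leaders, a ratio of 188 (95% interval 102 to 393, counting error only).

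CCDC73 shares 742 bases of exon with EIF3M, a translation initiation factor subunit on the opposite strand, and the library kit does not mark strand. EIF3M itself averaged 159, 248, 314, 165, 137 and 114 CPM in parental, lagger and passage 1 to 4 leader libraries. It was thus also highest at passage 1 and lowest at passage 4, over a much smaller range. The table sets aside ambiguous reads, 1.5985% to 2.92% of each library, which were left out here. Whether reads of the shared exon are among them depends on a counting mode that the sources do not state, and the part of EIF3M in the CCDC73 counts was not tested.

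MXRA7, annotated to matrix remodelling, had the smallest difference of the 10 between passage 1 and passage 4 leaders. Parental libraries had 111, 104 and 123 CPM and laggers 196, 196 and 217 CPM. The leaders gave 330.2, 363 and 309 CPM at passage 1, 285, 279 and 283 CPM at passage 2, 156, 224 and 175 CPM at passage 3, and 78.7, 89.3 and 70.1 CPM at passage 4. Leaders of passages 1, 2 and 3 were above every parental library and those of passage 4 were below them all. The passage 1 leader mean was 4.21 times that of passage 4, and the log2 difference of passage 4 minus passage 1 was -2.07 ± 0.16 (SE).

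ITGBL1, the secreted relative of integrin beta chains, did not cross the parental level. The parental line had 66.2, 66.2 and 60.3 CPM, far above all injected libraries. Laggers had 1.32, 13.7 and 8.05 CPM and passage 1 leaders 8.50, 27.4 and 6.93 CPM, which overlap. The leaders had 1.72, 1.5 and 0.0737 CPM at passage 2, 0, 0 and 0.231 CPM at passage 3, and 0, 0.0416 and 0 CPM at passage 4. A single count remained in the 3 passage 4 libraries, against 952 in passage 1 leaders (ratio 1021, 95% interval 183 to 40390) and 6887 in the parental line. FGF14, a gene on the opposite strand that shares 4354 bases of exon with ITGBL1, averaged 1.35 CPM in the parental line and had 0 counts at passages 3 and 4.

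Against the parental line the 10 genes moved in both directions, and these comparisons share the parental libraries. Passage 1 leaders were apart from it for all 10 genes, 2 higher and 8 lower, and laggers for 2 higher and 7 lower. Among all tested genes 29.7% and 27.5% were apart in passage 1 leaders, and 22.9% and 19.9% in laggers. At passage 3 only NIPAL4 and MXRA7 were apart above the parental line and ITGBL1 below it, with 20% and 18.1% of all genes apart in those directions. In passage 4 leaders 6 genes were apart above and 3 below, where 22.6% and 21.0% of all genes were. The choice used these levels, so the counts are read no further.

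The summed level of the fibroblast markers also reached its highest values in passage 1 libraries among the injected groups. The list of 7 summed to 119 to 254 CPM in the parental line, 1274 to 2153 CPM in laggers and 1009 to 2310 CPM in passage 1 leaders. It then summed to 739 to 1503 CPM at passage 2, 549.8 to 1336 CPM at passage 3 and 234 to 496 CPM at passage 4. COL1A2 and COL3A1 made up most of it in the injected groups, while PDGFRB was below 1 CPM on average in every group. No gene of the list was at 0 in any whole group. PDGFRA ran another way, at 2.53 CPM on average in laggers and 10.0 in passage 1 leaders. It averaged 63.7, 57.3 and 13.9 CPM at passages 2, 3 and 4. COL1A1 was highest in the parental line, at 159.6 CPM, and DCN and LUM were highest in laggers. COL1A1 and MBP, a gene of the Schwann list, were highest in the uninjected parental cells, so the lists are not read as marks of other cell types. In bulk RNA, expression by the cancer cells themselves, fewer cells of another type and less RNA per cell cannot be told apart. The part of these transcripts in the courses of CCDC73, MXRA7 and ITGBL1 was not tested. Schwann markers summed to 199.5 to 235 CPM in the parental line, nearly all MBP, with S100B at 0. The Schwann, macrophage, endothelial and neuron lists summed to at most 53.5, 35.1, 12.9 and 8.72 CPM in any injected library. Among them the macrophage list summed to 4.196 to 6.93 CPM in passage 1 leaders, 5.09 to 10.8 CPM at passage 3 and 10.76 to 35.1 CPM at passage 4. That rise was carried by ITGAM, which averaged 2.07, 5.42 and 20.9 CPM in those groups. The others of the list each averaged less at passage 4 than in passage 1 leaders, such as PTPRC at 0.675 against 2.23 CPM. AIF1 and MS4A7 were at 0 at passage 4. The part of these transcripts in the levels of the 7 genes was not tested.

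The tests were 3 comparisons among groups that the choice did not name. They used edgeR's quasi-likelihood test over 16187 genes, with Benjamini-Hochberg adjustment and a call at an adjusted p under 0.05. Passage 3 leaders against passage 1 laggers called 7 of the 10 genes, 5 higher and 2 lower. Over all genes 9.22% were called in that comparison, 4.61% higher and 4.60% lower. The median log2 difference of the 10 genes was 1.61, beside -0.03 over all genes tested. Lagger and passage 1 leader libraries overlapped for all of the 10 genes but CCDC73 and MXRA7. This comparison thus resembles the one the genes were chosen on, though it holds none of its libraries. The filter and each gene's spread came from 1 fit of all 18 libraries, those used for the choice included. Mitochondrial genes took 1.603% to 2.27% of gene counts in laggers and 0.872% to 1.13% in passage 3 leaders, which do not overlap. The share was 0.222% to 0.367% in the parental line, 1.72% to 2.52% in passage 1 leaders, 1.07% to 1.32% at passage 2 and 0.529% to 1.17% at passage 4, and its part in the results was not tested.

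The 5 genes that rose were AHNAK2, PTPRU, CDCP1, NIPAL4 and KCNN4. AHNAK2 rose by 2.47 ± 0.28 on the log2 scale (SE, edgeR adjusted p = 0.000137), PTPRU by 2.35 ± 0.33 (adjusted p = 0.000702), CDCP1 by 2.42 ± 0.48 (adjusted p = 0.00638) and NIPAL4 by 4.33 ± 0.89 (adjusted p = 0.00782), each with all 3 passage 3 libraries above all 3 laggers. KCNN4 rose by 1.84 ± 0.52 (edgeR adjusted p = 0.0371), but its libraries overlapped, with lagger replicate 3 at 102 CPM. Its call was lost without passage 3 replicate 3 (log2 1.06, edgeR adjusted p = 0.239), without lagger replicate 1 (adjusted p = 0.0733) and without lagger replicate 2 (adjusted p = 0.119). Without passage 3 replicate 2, the library with many unaligned reads, the same 7 genes were called.

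The 2 genes that fell were CCDC73 and ITGBL1, the coiled-coil gene and the secreted integrin relative. CCDC73 fell by 3.69 ± 0.57 on the log2 scale (SE, edgeR adjusted p = 0.00129) and ITGBL1 fell by 6.21 ± 1.15 (adjusted p = 0.00402), with passage 3 libraries below all laggers. Fitted on those 6 libraries alone, KCNN4 (edgeR adjusted p = 0.2), CDCP1 (0.094) and CCDC73 (0.0558) were no longer called, and limma-voom did not call ITGBL1 (adjusted p = 0.0656). MXRA7 differed by -0.14 ± 0.15 (95% interval -0.44 to 0.17) and was not called. Its laggers, at 196 to 217 CPM, stood below all passage 1 leaders. DCDC2 differed by 1.39 ± 1.16 and PIK3AP1 by 0.21 ± 0.82, neither called. Without lagger replicate 1, which held 54.9 CPM, PIK3AP1 differed by 2.47 (edgeR adjusted p = 0.044).

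**Figure D3:**
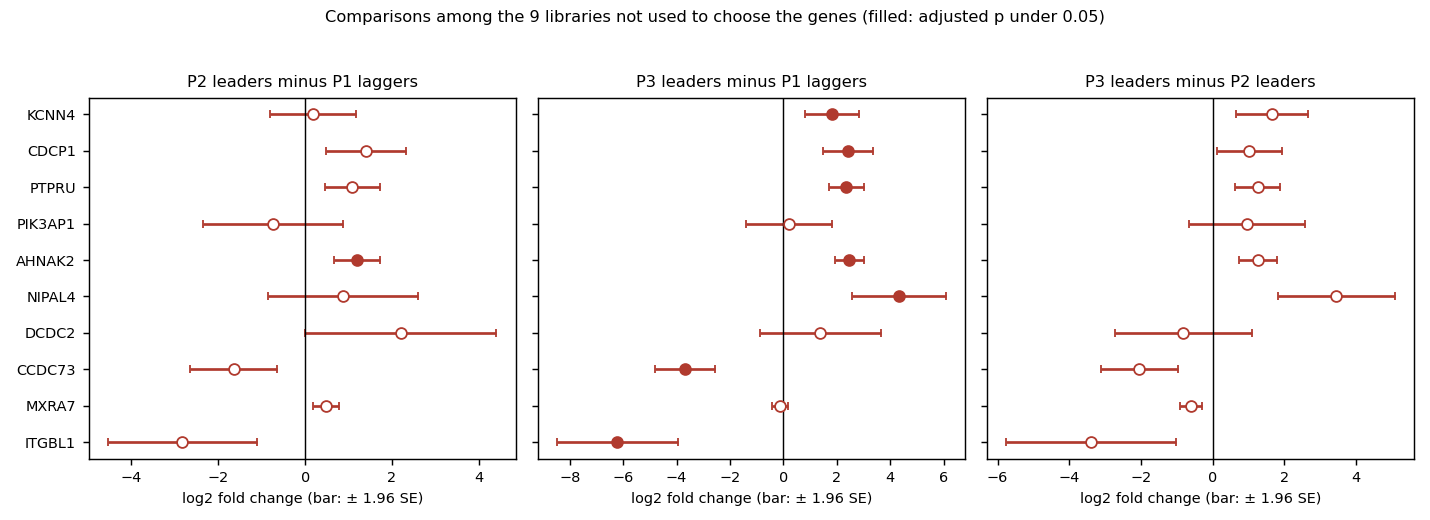
Log2 fold changes with 95% intervals (horizontal axis) of the 10 genes in the 3 comparisons among groups that the choice did not name. Filled points have an edgeR adjusted p under 0.05. AHNAK2 is filled in the left panel, 7 genes are filled in the middle panel and none in the right one.

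Passage 2 leaders against laggers called 1 of the 10 genes, AHNAK2, where 7.14% of all genes were called, 2.89% higher and 4.24% lower. It rose by 1.2 ± 0.27 on the log2 scale (SE, edgeR adjusted p = 0.0186), with every passage 2 library above every lagger. Leaving out lagger replicate 2 or passage 2 replicate 1 or 2 raised its adjusted p to 0.0637, 0.0813 and 0.0524. Fitted on those 6 libraries alone it had an edgeR adjusted p of 0.105, and none of the 10 was called. DESeq2 called 5, with CDCP1, PTPRU, AHNAK2 and MXRA7 higher and CCDC73 lower, limma-voom called CDCP1 and AHNAK2, and edgeR without the filter on low counts called 3 higher and 2 lower. PTPRU (1.09 ± 0.32, adjusted p = 0.0521), CDCP1 (1.40 ± 0.47, 0.077), CCDC73 (-1.65 ± 0.51, 0.0613), ITGBL1 (-2.83 ± 0.87, 0.0592) and MXRA7 (0.47 ± 0.15, 0.0696) missed the threshold of the same test. KCNN4 differed by 0.18 ± 0.50, with an interval of -0.81 to 1.16. The median over the 10 genes was 0.67, beside -0.04 over all genes.

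Passage 3 against passage 2 leaders, tested the same way, called none of the 10 genes in edgeR, and 0.0124% of all genes, which is 2. At an unadjusted p under 0.05, 8 of the 10 were counted, beside 1029 of 16187 genes. Both groups stand between passage 1 and passage 4 leaders in the series, so counts here are not independent of the choice. DESeq2 called 5 of the 10, NIPAL4, PTPRU and AHNAK2 higher and CCDC73 and MXRA7 lower. For the same comparison limma-voom called 0, and edgeR without the filter on low counts called 4. Fitted on those 6 libraries alone, edgeR called PTPRU (adjusted p = 0.0473) and AHNAK2 (adjusted p = 0.0185). Replicates were apart for 5 genes with passage 3 higher (CDCP1, NIPAL4, PTPRU, KCNN4 and AHNAK2), where 8.12% of all genes were. They were apart for 2 with passage 3 lower (CCDC73 and MXRA7), where 6.12% were. The largest difference among the genes apart was that of NIPAL4, at 3.45 ± 0.83 on the log2 scale (edgeR adjusted p = 0.182). AHNAK2 had the lowest adjusted p of the 10, at 1.27 ± 0.27 (edgeR adjusted p = 0.126). The 3 comparisons share libraries pairwise and are not independent of each other.

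Paralogs and partners of the 10 genes were read from 9 lists of 65 genes, 50 of them tested. In passage 3 leaders against laggers 7 rose and 0 fell, in passage 2 leaders against laggers 3 rose and 1 fell, and between passages 3 and 2 none was called by edgeR. That is 7 of 50 and 4 of 50, where 9.22% and 7.14% of all genes were called, so the passage 2 count is near the share over all genes. The lists were chosen with earlier results of these data known, and neither count is read as an excess. The median log2 difference over the tested list genes was 0.35 for passage 3 against laggers, 0.19 for passage 2 against laggers and 0.04 for passage 3 against passage 2, beside -0.03, -0.04 and 0.01 over all genes.

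Of the small family of KCNN4, KCNN1 was not analysed here. KCNN2 and KCNN3 had 0 counts in passage 3 and 4 leaders and averaged at most 0.165 CPM in any group. KCNMA1, the large-conductance calcium-activated potassium channel, averaged 70.7 CPM in the parental line, 12.8 in laggers, 5.12 in passage 1 leaders and 23.1, 73.4 and 83.3 CPM in leaders of passages 2, 3 and 4. It rose by 2.52 ± 0.39 on the log2 scale in passage 3 leaders against laggers (SE, edgeR adjusted p = 0.00128), and its means run in the same order as those of KCNN4 from passage 1 to 4. PHPT1, a histidine phosphatase that inhibits the KCNN4 channel, fell by 1.2 ± 0.27 in passage 2 leaders against laggers (adjusted p = 0.019). Per kilobase of exon KCNN4 averaged 259 CPM in passage 4 leaders and KCNMA1 2.34.

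Of 7 genes around CDCP1, PLAU, the urokinase that activates plasmin, was called. It averaged 79.5 CPM in laggers and 463 CPM in passage 3 leaders and rose by 2.54 ± 0.66 on the log2 scale (SE, edgeR adjusted p = 0.0255). SRC, the kinase that phosphorylates CDCP1, differed by 0.32 ± 0.28 and was not called, and ST14, a protease that cleaves CDCP1, averaged at most 1.74 CPM in any group. Among MAM receptor phosphatases PTPRU stood alone: PTPRM and PTPRT averaged at most 0.414 CPM and PTPRK at most 7.001 CPM. The catenin CTNND1 rose by 0.93 ± 0.17 in passage 3 leaders against laggers (edgeR adjusted p = 0.00322), and CTNND1 and CTNNB1, the beta-catenin gene, rose by 0.74 ± 0.17 and 0.72 ± 0.20 in passage 2 leaders against laggers (adjusted p = 0.0184 and 0.0447).

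The scaffold AHNAK, the close relative of AHNAK2, also rose in passage 3 leaders against laggers. Its log2 difference was 1.43 ± 0.25 (SE, edgeR adjusted p = 0.0029). In passage 2 leaders against laggers, where AHNAK2 was called, AHNAK differed by 0.03 ± 0.25 and was not called. AHNAK averaged 331 CPM in the parental line, 116 in laggers, 97.5 in passage 1 leaders, 118 at passage 2, 311 at passage 3 and 319 at passage 4. In passage 3 leaders against laggers ANXA2, a membrane-binding partner of AHNAK, rose by 0.65 ± 0.19 (edgeR adjusted p = 0.0481). Among genes of phosphoinositide 3-kinase signalling, the catalytic subunit PIK3CD rose by 2.02 ± 0.40 (adjusted p = 0.00566). BANK1, the adaptor most like PIK3AP1, averaged at most 0.607 CPM in any group.

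Relatives of the remaining members are given by their levels. None of the 5 NIPA-family magnesium transporters was called in the tested comparisons, and NIPAL2 and NIPA1 averaged 37.1 and 69.6 CPM in passage 1 leaders against 15.0 and 35.1 CPM in passage 4 leaders, the opposite order to NIPAL4. NIPA2, NIPAL3 and NIPAL1 averaged at most 91.1, 29.1 and 3.49 CPM in any group. Of the doublecortin family, DCX, DCLK1, DCLK3 and DCDC2C had at most 1 count per group, DCDC1, DCDC2B and RP1L1 averaged at most 0.71, 0.535 and 0.931 CPM, and DCLK2 averaged 5.81 to 8.69 CPM in the injected groups and 19.6 CPM in the parental line. ITGB1, the most abundant integrin beta chain in these libraries, rose by 1 ± 0.24 in passage 3 leaders against laggers (edgeR adjusted p = 0.0160) while ITGBL1 fell. MXRA8 averaged 67.3 CPM in laggers and 24.4 CPM in passage 3 leaders and was not called.

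The genes whose log2 CPM across the 18 libraries was most like each member are given with Pearson's r as a description; libraries of a group share their treatment. KCNN4 was most like SEMA6B (0.96), FBXO27 (0.96) and PTPRU (0.95), and PTPRU most like ARHGEF1 (0.97), SEMA6B (0.96) and KCNN4 (0.95). SEMA6B, a transmembrane semaphorin, averaged 49.7 CPM in the parental line, 2.61 CPM in passage 1 leaders and 295 CPM in passage 4 leaders. CDCP1 was most like ITPRIP (0.98), MTHFD1L (0.97) and PYGB (0.96), and AHNAK2 most like HMGA1 (0.97), ITPRIP (0.97) and ADORA1 (0.96). HMGA1, an architectural chromatin protein, averaged 106 CPM in passage 1 leaders and 1538 CPM in passage 4 leaders.

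CCDC73 and MXRA7 had the same most similar gene, the imprinted MEST, at 0.93 and 0.94. It averaged 1115 CPM in the parental line, 13290 CPM in passage 1 leaders and 374 CPM in passage 4 leaders. CCDC73 was next most like RHOU (0.93) and DPPA3 (0.92), and MXRA7 most like MESTP3 (0.93), a MEST pseudogene whose reads may be those of MEST, and MS4A4E (0.93). For NIPAL4 they were NTSR1 (0.92), CMTM7 (0.91) and WWTR1 (0.91), for PIK3AP1 OGFRL1 (0.91), QKI (0.87) and CNIH3 (0.87), and for DCDC2 GPATCH1 (0.89), PREP (0.87) and SLC12A7 (0.87). ITGBL1 was most like FGF14 (0.92), the gene it overlaps, then PPAP2B (0.90) and CNNM1 (0.90). Among the 7 genes with a high passage 4 level, r ran from 0.66 to 0.95 with a median of 0.84, the lowest between NIPAL4 and PIK3AP1. The libraries that the choice used are among those correlated, so a positive r between these genes follows in part from the choice.

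Some neighbours on the chromosome, in GENCODE 29 gene order, differed between passage 4 and passage 1 leaders in the direction of the member. Others did not. SOX4 beside DCDC2 differed the opposite way, by -1.10 ± 0.40 (SE, log2). Replicates overlapped for PRRG4 beside CCDC73, TM9SF3 beside PIK3AP1, MRS2 beside DCDC2, LAPTM5 beside PTPRU, ZNF283 beside KCNN4 and C14orf79 beside AHNAK2. Those of EIF3M, LCOR, MECR, CEP170B and FGF14, beside CCDC73, PIK3AP1, PTPRU, AHNAK2 and ITGBL1, were apart in the member's direction. Over all tested genes 24.1% were apart higher and 22.4% lower. Next to KCNN4 on chromosome 19 lie SMG9, a factor of nonsense-mediated decay, and then PLAUR, the urokinase receptor. Passage 4 minus passage 1 leaders differed by 3.82 ± 0.67 (SE, log2) for PLAUR, with means of 32.2 and 455 CPM, and by 2.09 ± 0.28 for SMG9, with 12.7 and 54.0 CPM. Of the 40 tested coding genes within 20 on either side of KCNN4, 32 were above 0 in that contrast, with a median of 0.75, beside 53.0% and 0.05 over all 13035 tested coding genes. The same 40 genes had a median of 0.77 for passage 4 against passage 3 and of -0.04 for passage 3 against passage 2. The windows of the other 9 genes had medians from -0.34 to 0.33 for passage 4 minus passage 1. For passage 4 against the parental line the KCNN4 window had 32 of 40 genes above 0 (median 0.72), but the DCDC2 window had 36 of 40 (median 0.94) and the NIPAL4 window 30 of 40 (median 0.47), beside 50.3% of all coding genes. The KCNN4 window was picked with these values known and has no test.

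**Figure D4:**
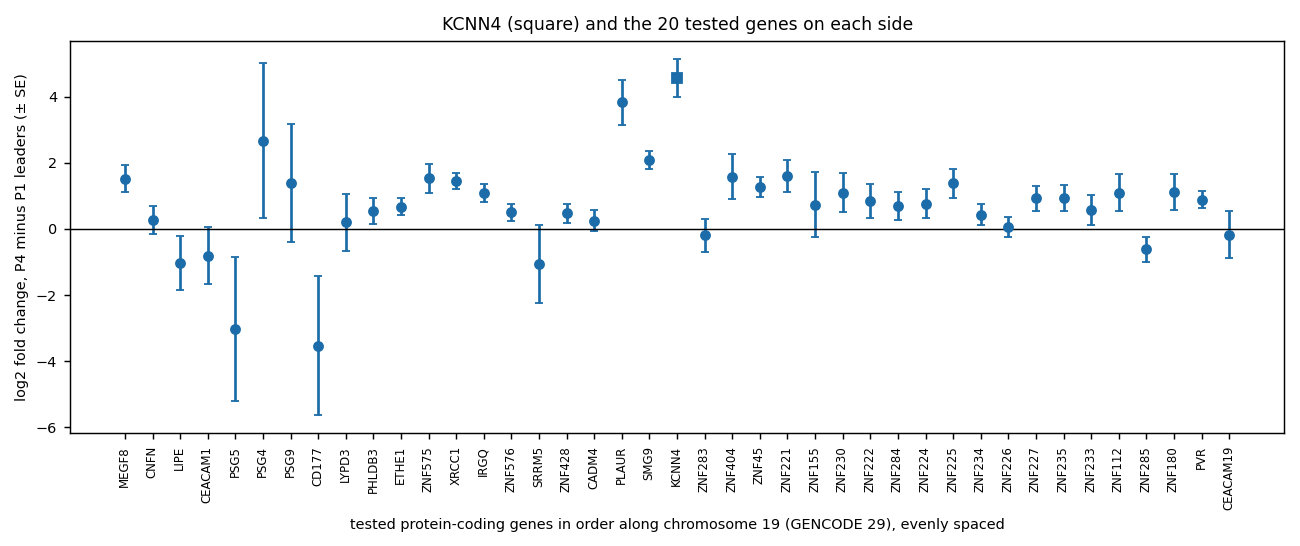
Log2 fold change of passage 4 minus passage 1 leaders (vertical axis, edgeR, bars ± SE) for KCNN4 (square) and the 20 tested coding genes on each side in GENCODE 29 order, evenly spaced. KCNN4, PLAUR and SMG9 are adjacent, and 32 of the 40 other genes lie above 0.

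Beside CDCP1 on chromosome 3, TMEM158 averaged 17.3 CPM in passage 1 leaders and 380 CPM in passage 4 leaders, a log2 difference of 4.45 ± 0.76 (SE), and LIMD1 differed by 2.26 ± 0.22. EXOSC7 on the other side differed by -0.08 ± 0.16. Beside MXRA7 on chromosome 17, the sialyltransferases ST6GALNAC1 and ST6GALNAC2 differed by -4.05 ± 0.47 and -3.58 ± 0.46, with ST6GALNAC1 at 140.5 CPM in passage 1 leaders and 8.49 CPM in passage 4 leaders. On its other side JMJD6 differed by -0.31 ± 0.20. JMJD6 was the only nearest neighbour of the 10 genes called in the tested comparisons: it fell by 1.01 ± 0.20 in passage 3 leaders against laggers (edgeR adjusted p = 0.00603), and by 0.73 ± 0.20 in passage 2 leaders against laggers (adjusted p = 0.0385). ADAM19, beside NIPAL4 on chromosome 5, averaged 2.43 and 19.99 CPM in passage 1 and passage 4 leaders.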

How the data were processed

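Expression of 10 genes was read in 18 RNA-seq libraries of MiaPaCa-2 cells, made with a SMART-Seq kit, which keeps no strand, and read from both ends for 50 bases (the labels' protocols). The deposited table holds raw counts per gene from the authors. The submitters' processing notes name HTSeq 0.5.3, STAR 2.5.0a, cutadapt 1.6 and DESeq 1.22.1, with no roles. Build and annotation: not given in the sources used here. The 5 entries that name no gene took 27.6% to 60.6% of each library and were left out.

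All 18 libraries were fitted together in edgeR 4.0.16 (R 4.3.3; TMM factors; filterByExpr by group, which kept 16187 genes and left out 41258; quasi-likelihood F test; Benjamini-Hochberg over all genes tested). Alternatives were RLE and upper-quartile factors, no filter, a replicate block, limma-voom 3.58.1, DESeq2 1.42.0, a fit of only the groups compared, and leaving out each library. The test was tested on simulated data. Positions and exons came from GENCODE 29, which held 51812 of the 57445 identifiers, and promoters from RefSeq; groups follow the sample titles. Likeness used log2 CPM with a prior count of 2. Count ratios carry exact 95% intervals for counting error only.

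The members and gene lists were chosen with earlier results of these data known. Named genes are the 10 members, up to 4 called genes per list, paralogs by level, the 3 most similar genes per member and the nearest tested neighbours. CD79A, HBB, the KCNN4 window, PLAUR, LIMD1 and ST6GALNAC2 were named after their values were seen. Replicates of a group were not identical within counting error, with chi-square per degree of freedom from 19.6 to 219.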

Additional observations from a re-analysis of the deposited data

How the results depend on the processing

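Counts of called genes depended on the method. For passage 2 leaders against laggers the 1155 genes became 2230 with DESeq2, 96 when only the libraries compared were fitted, and 177 to 1779 when 1 library was left out. For passage 3 leaders against laggers the 1492 became 2403, 301 and 622 to 1685 in the same order. The counts moved most without passage 2 replicate 1, 2 or 3 (177, 204 and 464), lagger replicate 2 or 3 (561 and 716) or, upward, lagger replicate 1 in the first comparison, and without passage 3 replicate 1, 2 or 3 (850, 930 and 622) or lagger replicate 2 (812) in the second. For passage 3 against passage 2 leaders the 2 genes became 143 and 113, and 111 without the filter on low counts, 24 with limma-voom, 4 with the replicate block, and 0 to 1 with 1 library left out, beside 796 to 1261 at an unadjusted p under 0.05. Upper-quartile factors moved the median of all genes by -0.13 and -0.14 log2 in the comparisons with laggers. The split of calls was then 336 higher and 1138 lower for passage 2, beside 468 and 687, and 527 and 1062 for passage 3, beside 747 and 745.

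The replicate block gave 814 and 1184 genes in the comparisons with laggers. Same-numbered libraries of the groups compared correlated from -0.30 to 0.20 after group means were removed, so the numbers are not taken to pair them. With the block the same 7 members were called for passage 3 against laggers, and CDCP1 and PTPRU beside AHNAK2 for passage 2.

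PIK3AP1 was not called in the main analysis and changed sign: for passage 2 against laggers it was -0.74, then 0.11 with limma-voom and -1.25 to 1.52 with 1 library left out; for passage 3 against laggers 0.21, then -1.03 to 2.47; and for passage 3 against passage 2 0.95, then -0.29 to 1.41. KCNN4 for passage 2 against laggers was 0.18, then -0.16 to 1.10. Fitted on the 6 libraries compared alone, passage 3 against laggers called 4 of the 7 members (NIPAL4, PTPRU, AHNAK2 and ITGBL1), and DCDC2 did not pass the filter there. AHNAK2, PTPRU and NIPAL4 were called for that comparison in all 14 settings. DCDC2 and ITGBL1 rest on few counts outside their high groups, which limits their folds.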
